A study of Medicago truncatula and Hordeum vulgare with 90 samples.

Results

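Roots of the barley nsp1 mutant were compared with roots of the unedited cultivar Golden Promise (GP), both grown with full nutrition. The comparison used 6 libraries, 3 of nsp1 and 3 of GP, of the 42 barley libraries and the 90 libraries of the whole series, which were taken by the genotype and nutrient regime in their labels. The nsp1 plants carried the allele labelled nsp1-1, which was made with CRISPR/Cas9 in the GP background, and the GP plants carried no edit. The plants of both groups grew for 21 days in sterilized sharp sand and were fed modified BNM solution with 5 mM nitrate and 0.5 mM phosphate (+P+N). RNA came from whole roots and was enriched for poly A transcripts. Further libraries, 3 in each group, were set beside these 6: nsp1 and GP with nitrate left out (+P-N), with phosphate left out (-P+N) or with neither (-P-N), the nsp2 mutant of the same background in all 4 regimes, and at +P+N lines overexpressing the Medicago truncatula genes (MtNSP1ox and MtNSP2ox). The labels name 1 nsp1 allele, and its edit was not analysed here. Neither the labels nor the methods say whether the 3 libraries of a group came from separate plants, so p-values measure the spread between libraries, which may be technical.

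NSP1 and NSP2 are GRAS-type transcription factors that were found in Medicago truncatula as genes required for root nodules. Both also act in the formation of arbuscular mycorrhiza and in the synthesis of strigolactones, hormones made from carotenoids that starved roots release into the soil. D27, an isomerase, and CCD7 and CCD8, carotenoid cleavage enzymes, carry out consecutive steps of strigolactone synthesis, and CRTISO is an isomerase of the carotenoid pathway upstream of them. With ample phosphate and nitrate this pathway is usually low in roots. The comparison at +P+N asks how nsp1 roots differ from GP roots where both nutrients are supplied. Apart from 5 identifiers that carry these names, barley genes are given by identifier alone, since no table used here pairs the other identifiers with names. For the same reason the level of the edited NSP1 gene could not check the labels, and the root label could not be checked against marker genes. The study describes several potential NSP1 orthologs in barley and names the gene mutated for its colonization assays HvNSP1a. Whether the other copies act in the nsp1 line was not tested here. Nor was it tested whether a difference from GP follows from the mutation or from other features of the edited line.

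The 3 nsp1 libraries held 96556579, 128030306 and 119457733 counts, and the 3 GP libraries held 87854728, 75850062 and 161780602. A large part fell on 1364 genes that rise and fall together across the 42 barley libraries, defined by a correlation over 0.8 of their level with the inverse of the normalization factor. These genes took 81.3, 84.3 and 80.8% of the counts in nsp1 libraries, against 74.8, 62.5 and 77.1% in GP libraries, so the groups did not overlap. The other genes were left with 18071717 to 22888966 counts in nsp1 libraries and 22178180 to 37018269 in GP libraries. Replicate libraries all differed beyond counting error, their chi-square statistic per gene being 19.8 to 30.7 in nsp1 and 14.6 to 159 in GP, and each counted as 1 replicate. Levels are CPM, counts scaled to library size, after TMM normalization, which scales libraries so that most genes keep their level. In whole roots, fewer cells of a type and less RNA per cell cannot be told apart.

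Expression of 11463 of the 46523 genes tested (24.6%) differed between nsp1 and GP at +P+N, with an adjusted p under 0.05 in edgeR's quasi-likelihood test. Of these, 5689 (12.2%) were higher in nsp1 and 5774 (12.4%) were lower. The median size of these differences was 0.67 on the log2 scale: 3671 genes were over 1.5-fold higher and 2861 over 1.5-fold lower, and 452 were over 4-fold higher and 310 over 4-fold lower. Of the genes over 4-fold higher, 58 had no count in any GP library, so their fold has only a lower bound, and 7 of the genes over 4-fold lower had none in any nsp1 library. A mean of at least 1 CPM in the group with the higher level was reached by 92 of the 452 genes and 104 of the 310. Close correlation with a neighbouring gene was found for 138 of the 452 and 96 of the 310, so these changes are not all independent. Genes with a mean of 1 to 10 CPM split into 14.5% higher and 18.6% lower. Among the 953 genes at 100 CPM or more, 28.3% were higher and 3.67% lower, and 81.5% of these abundant genes belonged to the set that rises and falls together. That set as a whole had 632 of 1364 genes (46.3%) higher and 0 lower, with a median log2 fold change of 0.77. Normalization factors were 0.730 to 0.875 in nsp1 and 1.01 to 1.61 in GP libraries. Since the set was defined by these factors, its higher levels and larger shares of counts in nsp1 are not independent of that choice. Neither is the lean among abundant genes, most of which belong to the set. How much of either follows from the choice was not tested. With the set left out before normalization, 5685 genes were higher and 5625 lower, close to the counts with it. Any further part of this set in the differences was not tested.

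**Figure D1:**
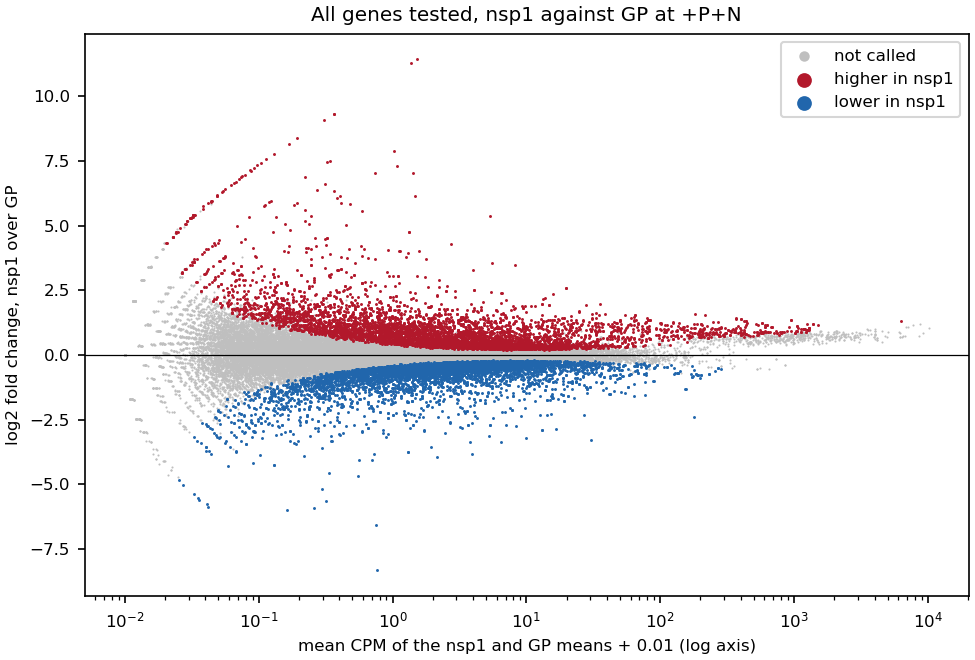
Log2 fold change of nsp1 over GP at +P+N (vertical axis) against the mean of both groups in CPM plus 0.01 (horizontal log axis), 1 point per gene tested. Red points are the 5689 genes called higher in nsp1, blue points the 5774 called lower, and grey points the rest; the band of abundant genes to the right sits above 0.

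The 10 largest increases and 10 largest decreases were taken among genes of at least 1 CPM in the higher group whose libraries did not overlap and whose call held with any 1 of the 6 libraries left out. Genes of the set that rises and falls together and genes correlated over 0.99 with the gene next to them were passed over. The increases ran from levels of 1.14 to 10.4 CPM in nsp1, against 0 to 0.265 CPM in GP.

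**Figure D2:**
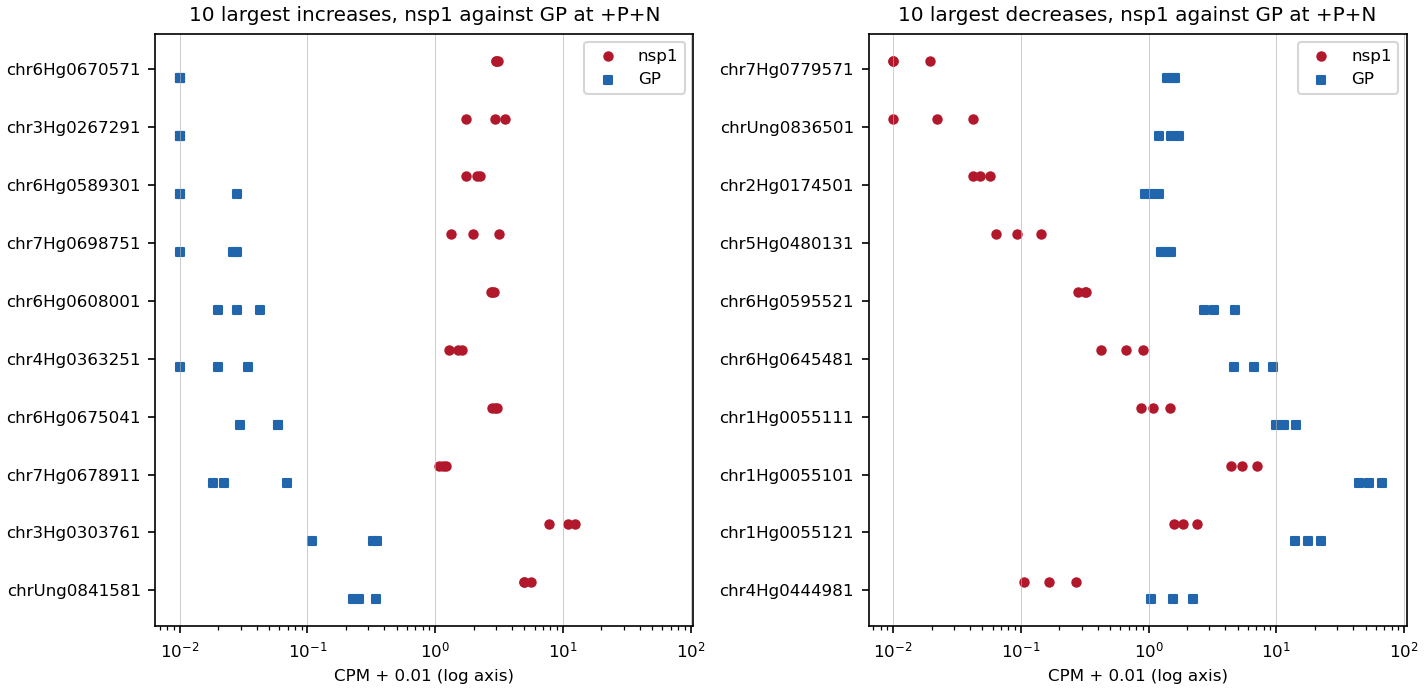
CPM plus 0.01 on a log axis for the 10 largest increases (left) and 10 largest decreases (right), 1 point per library, red circles for the 3 nsp1 libraries and blue squares for the 3 GP libraries at +P+N. In none of the 20 genes do the points of nsp1 and GP overlap.

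The most abundant of the 10 was chr3Hg0303761, which had 7.85, 12.5 and 10.9 CPM in nsp1 libraries, against 0.343, 0.098 and 0.317 CPM in GP libraries. All nsp1 libraries were far above all GP libraries, with a log2 fold change of 5.38 ± 0.28 (SE, n = 3 each) and an adjusted p of 1.3e-06 in edgeR's test. In the starved regimes its level followed nitrate in both genotypes. It had 14.9, 16.5 and 16.4 CPM in nsp1 and 17.1, 19.4 and 19.5 CPM in GP at +P-N, and 28.6, 26 and 25.8 CPM in nsp1 and 37, 40.9 and 29.9 CPM in GP at -P-N. At -P+N, where nitrate was given, both genotypes were low, with 0.0397, 0.136 and 0.138 CPM in nsp1 and 0.126, 0.143 and 0.156 CPM in GP. Thus the level in fully fed nsp1 roots lay between that of fed and that of nitrate-starved GP roots. At +P+N it was also low in nsp2 roots, with 0.0697, 0.0379 and 0.0448 CPM, and nsp1 exceeded nsp2 with a log2 fold change of 7.71 ± 0.28 and an adjusted p of 9.6e-07 in edgeR's test. The overexpression lines had 6.36, 10.5 and 7.86 CPM (MtNSP1ox) and 13.3, 13.9 and 17.3 CPM (MtNSP2ox).

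chrUng0841581, on an unplaced sequence, had 5.61, 4.94 and 4.96 CPM in nsp1 libraries, against 0.216, 0.335 and 0.244 CPM in GP libraries. The log2 fold change was 4.31 ± 0.14 with an adjusted p of 5.8e-08 in edgeR's test, and it was 6.18 with nitrate left out, 6.05 with phosphate left out and 6.99 with neither given. In these regimes, in that order, it averaged 0.682, 2.09 and 0.532 CPM in nsp1 and 0.00892, 0.0353 and 0.00359 CPM in GP, so nsp1 was above GP throughout. Starved GP libraries held at most 8 counts of this gene, so the size of its starved fold changes is poorly determined. At +P+N chrUng0841581 averaged 2.28, 2.40 and 1.31 CPM in nsp2, MtNSP1ox and MtNSP2ox roots, also above GP. chr7Hg0678911 had 1.14, 1.21 and 1.06 CPM in nsp1 libraries and 0.0588, 0.00817 and 0.0122 CPM in GP libraries. Its log2 fold change was 5.56 ± 0.36 (adjusted p = 4.7e-06, edgeR), and nsp1 was also higher in each starved regime. At +P+N it averaged 0.0451, 0.0508 and 0.0386 CPM in nsp2, MtNSP1ox and MtNSP2ox roots. Its 3 nsp1 libraries at -P-N were uneven, with 5.48, 0.558 and 0.904 CPM.

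The other large increases were close to on and off differences. chr6Hg0670571 had 2.99, 3.01 and 3.11 CPM in nsp1 libraries and no count in any GP library, which makes it at least 126-fold higher in nsp1 with 3 counts per GP library as the floor. chr3Hg0267291, with 1.75, 3.52 and 2.91 CPM in nsp1 and no count in GP, was at least 113-fold higher on the same floor. Both were called in all 4 regimes, but they differed in the other mutant. chr6Hg0670571 had 3.72, 3.6 and 3.89 CPM in nsp2 roots, so that nsp1 over nsp2 was -0.29 ± 0.09 on the log2 scale and missed the threshold (adjusted p = 0.061, edgeR). chr3Hg0267291 had 0.0139, 0 and 0.0336 CPM there, and nsp1 over nsp2 was 7.39 ± 0.51 (adjusted p = 2.3e-05, edgeR). chr6Hg0589301 and chr7Hg0698751 had means of 2.02 and 2.14 CPM in nsp1, against totals of 3 and 5 counts in GP, which gives ratios of 264 (95% exact interval 89.9 to 1284) and 168 (71.6 to 519) that cover counting error only. chr4Hg0363251 had 406 counts in nsp1 and 4 in GP, a ratio of 140.0 (54.3 to 516). chr6Hg0608001 and chr6Hg0675041 were higher with log2 fold changes of 7.04 ± 0.21 and 6.13 ± 0.20. In nsp2 roots chr6Hg0608001 had no count at +P+N, whereas chr6Hg0675041 had 3.1, 2.84 and 2.78 CPM, as in nsp1. At +P+N the means in MtNSP1ox and MtNSP2ox were 3.59 and 0.277 CPM for chr6Hg0608001 and 2.55 and 2.59 CPM for chr6Hg0675041. They were 1.14 and 1.80 CPM for chr6Hg0670571, 3.62 and 3.59 CPM for chr6Hg0589301, and 1.26 and 1.39 CPM for chr4Hg0363251. In these lines chr7Hg0698751 had 0.103 and 4.91 CPM, and chr3Hg0267291 only 0.00605 and 0.0107 CPM.

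Among the decreases, 3 consecutive genes of chromosome 1H stood out by level. chr1Hg0055101 had 7.04, 4.42 and 5.37 CPM in nsp1 libraries, against 44.5, 67.5 and 53.7 CPM in GP libraries. chr1Hg0055111 had 1.47, 0.856 and 1.07 CPM in nsp1 libraries, against 9.87, 14.2 and 11.5 CPM in GP libraries. chr1Hg0055121 had 2.39, 1.56 and 1.85 CPM in nsp1 libraries, against 14, 22.3 and 17.7 CPM in GP libraries. Every nsp1 library was below every GP library, with log2 fold changes of -3.27 ± 0.19, -3.36 ± 0.17 and -3.19 ± 0.18 and adjusted p of 1.9e-06, 1.2e-06 and 1.8e-06 in edgeR's test. Across the 42 barley libraries the log2 levels of the 3 genes correlated with r of 0.967 to 0.993, and reads shared between neighbours cannot be told apart from expression together. Without nitrate all 3 genes were nearly silent: chr1Hg0055101 had means of 0.0410 and 0.0667 CPM in nsp1 and 0.0673 and 0.0783 CPM in GP at +P-N and -P-N. At -P+N its level was 5.76, 6.29 and 7.03 CPM in nsp1 and 5.43, 4.63 and 5.25 CPM in GP, a small difference upward in nsp1 (0.36 ± 0.09, adjusted p = 0.017, edgeR). Fully fed nsp1 roots thus held the gene at about the level seen in phosphate-starved roots of either genotype. nsp2 roots at +P+N had 47.2, 62.2 and 49.4 CPM, so that nsp1 was lower than nsp2 as well (-3.23 ± 0.18, adjusted p = 7.8e-06, edgeR), while the MtNSP1ox and MtNSP2ox means were 3.2 and 2.89 CPM.

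chr6Hg0595521 and chr6Hg0645481 were also at their lowest in roots without nitrate. chr6Hg0595521 had 0.311, 0.31 and 0.268 CPM in nsp1 libraries, against 2.69, 4.71 and 3.26 CPM in GP libraries. It had 13.7, 12.8 and 13.6 CPM in nsp1 and 24.7, 22 and 23.8 CPM in GP at -P+N, and 4 counts or fewer in each library of both genotypes at +P-N and -P-N. So this gene, highest under phosphate starvation with nitrate, was 11.8-fold lower in nsp1 when both were supplied. chr6Hg0645481 had 0.897, 0.417 and 0.66 CPM in nsp1 libraries, against 4.69, 9.35 and 6.73 CPM in GP libraries, with a log2 fold change of -3.38 ± 0.27 (adjusted p = 1.4e-05, edgeR). chr2Hg0174501 and chr4Hg0444981 fell too, with means of 0.0394 and 0.170 CPM in nsp1 and 1.05 and 1.61 CPM in GP. In nsp2 at +P+N these 4 genes averaged 3.20, 7.80, 0.619 and 1.44 CPM, and nsp1 was lower than nsp2 for each, with log2 fold changes of -3.43, -3.57, -3.93 and -3.04. The overexpression lines were low as well, with means of 0.233, 1.03, 0.0592 and 0.0826 CPM in MtNSP1ox and 0.206, 1.05, 0.107 and 0.207 CPM in MtNSP2ox.

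**Figure D3:**
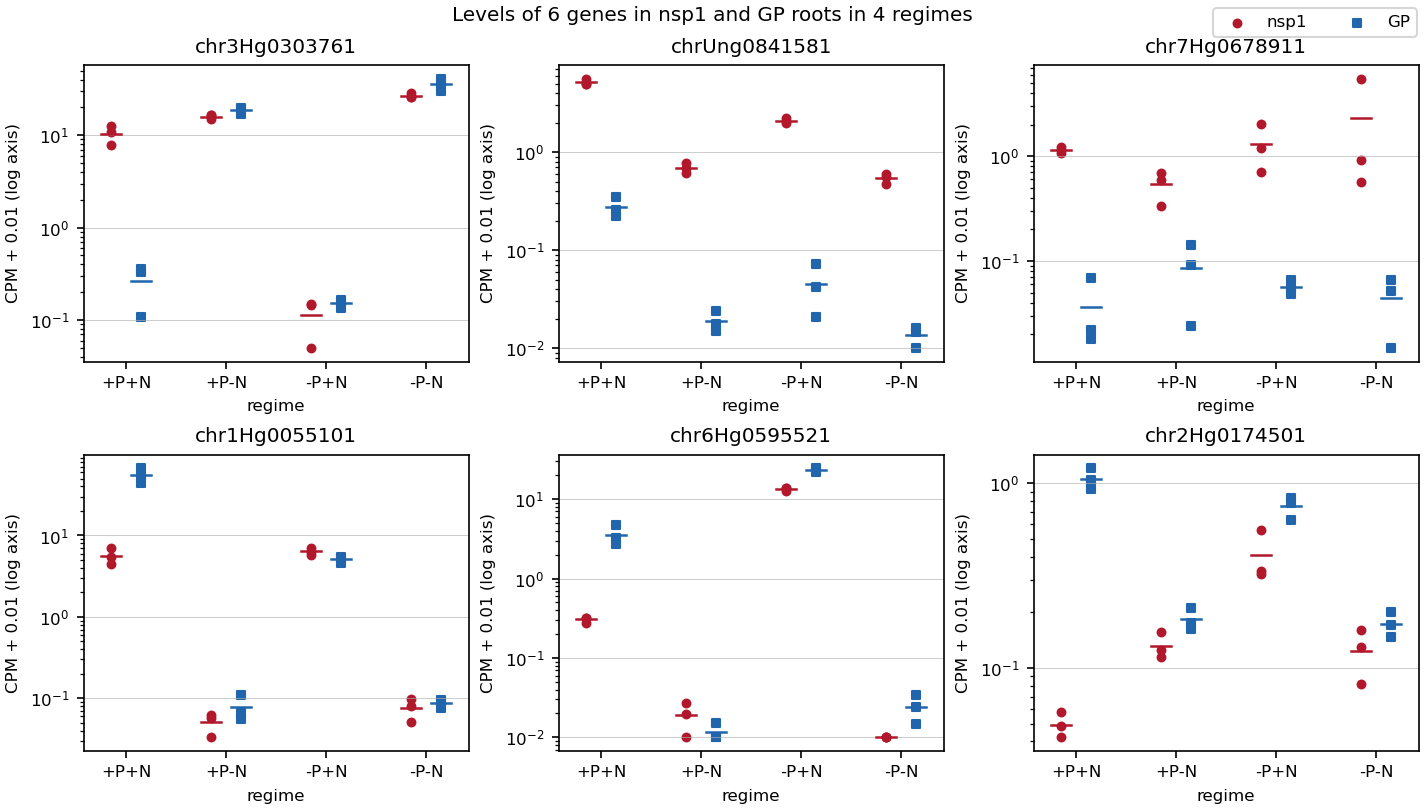
CPM plus 0.01 on a log axis in 4 regimes for 6 genes, with 1 point per library and a bar at the mean of 3 libraries, red for nsp1 and blue for GP. At +P+N nsp1 is above GP in the upper panels and below it in the lower ones. For chr3Hg0303761, chr1Hg0055101 and chr2Hg0174501 nsp1 comes closer to GP in each starved regime.

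The 3 remaining large decreases were called in all 4 regimes. chr7Hg0779571 had 0, 0 and 0.00957 CPM in nsp1 libraries, against 1.39, 1.59 and 1.55 CPM in GP libraries, and had no count in any starved nsp1 library. With 1 count in nsp1 and 592 in GP, GP over nsp1 was 429 (95% exact interval 76.7 to 16978). In nsp2 roots it had 1.39, 1.88 and 1.85 CPM, and in the MtNSP2ox line 1 count in total. chrUng0836501 had 4 counts in nsp1 and 566 in GP, which makes GP over nsp1 103 (95% exact interval 39.8 to 378). In nsp2 this gene averaged 0.0277 CPM, and nsp1 over nsp2 was -0.83 ± 0.95 (adjusted p = 0.66, edgeR). chr5Hg0480131 had 0.0837, 0.0535 and 0.134 CPM in nsp1 libraries, against 1.5, 1.32 and 1.23 CPM in GP libraries, with a log2 fold change of -3.83 ± 0.25 (adjusted p = 4.7e-06, edgeR). It averaged 1.00, 1.07 and 1.04 CPM in nsp2, MtNSP1ox and MtNSP2ox roots.

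Whether genes that respond to starvation differed between nsp1 and GP in fed roots was described with lists taken from the nsp2 mutant, whose libraries belong to neither group. Such lists can miss genes whose response to starvation needs NSP2, so they do not cover the whole response. D27, for example, averaged 0.346 CPM in GP at +P+N and 4.29 CPM at +P-N. In nsp2 it was not called at +P-N (log2 fold change 0.57, adjusted p = 0.062, edgeR) or -P+N (0.56, adjusted p = 0.10, edgeR). Genes over 1.5-fold higher or lower in starved than in fed nsp2 roots formed a list for each regime. In nsp2 41.5% of all genes were called at +P-N, 33.3% under -P+N and 37.8% under -P-N, each against +P+N, with 19.7, 17.6 and 18.8% higher and 21.8, 15.8 and 19.0% lower. Of the 6847 genes higher in nsp2 at +P-N, 1845 (26.9%) were higher in nsp1 than in GP at +P+N and 5.45% were lower, beside 12.2% and 12.4% of all genes tested. Their median log2 fold change was 0.23, or 0.22 with genes at 0 in 1 group set to their bound, beside -0.01 over all genes. Of the 7744 genes lower in nsp2 at +P-N, 2391 (30.9%) were lower in nsp1 and 7.52% higher, with a median of -0.21. Lists were taken in the same way from -P+N. Among 5876 genes higher there, 1823 (31.0%) were higher in nsp1 and 5.72% lower, and among 4788 genes lower there, 1839 (38.4%) were lower and 8% higher, with medians of 0.27 and -0.33. From -P-N, 1957 of 6623 genes (29.5%) were higher and 2199 of 6249 (35.2%) were lower. The 1855 genes called higher in nsp2 at -P+N and not called at +P-N had 20.5% higher and 3.72% lower in nsp1. The 3043 genes called higher at +P-N and not called at -P+N had 14.2% and 6.24%. A missed threshold does not show that a gene was alike in both regimes. With the genes that rise and fall together and correlated neighbours left out, the list from +P-N still had 25.7% higher, beside 10.6% of the genes left.

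**Figure D4:**
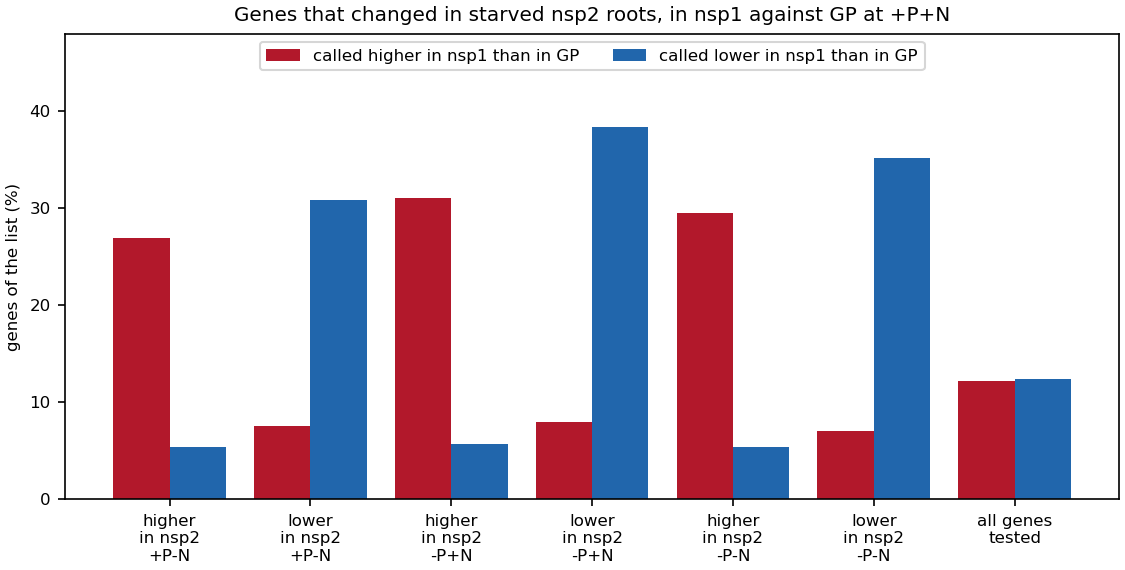
Percent of genes called higher (red) and lower (blue) in nsp1 than in GP at +P+N, for 6 lists of genes that were higher or lower in nsp2 roots in a starved regime than at +P+N, and for all genes tested. The lists of genes that were higher in starved nsp2 roots have 26.9 to 31.0% higher in nsp1, and those that were lower have 30.9 to 38.4% lower, against 12.2 and 12.4% of all genes.

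The same lists were also read in starved roots, each in its own regime. Of the genes higher in nsp2 at +P-N, 18.8% were higher and 16.5% lower in nsp1 than in GP there, beside 11.3% and 13.5% of all genes. Of the genes higher in nsp2 at -P+N, 20.9% were higher and 15.9% lower in nsp1 under that same starvation, beside 12.6% and 12.6% of all genes, and their median log2 fold change was 0.03. Among those higher in nsp2 at -P-N, 16.1% were higher and 17.2% lower in nsp1 with both nutrients left out, beside 9.43% and 11.5% of all genes, the median being -0.01. The lists of genes lower in starved nsp2 roots had 23.9% (+P-N), 19.4% (-P+N) and 16.9% (-P-N) lower in nsp1, and 5.37, 7.79 and 8.96% higher, to be read beside the same shares of all genes. Whether these shares differ from those at +P+N was not tested. The sets of genes over 4-fold lower or higher at +P+N, used next, include many weakly expressed genes and correlated neighbours. Seen from the other side, the 310 genes over 4-fold lower in nsp1 at +P+N had 205 members (66.1%) lower and 36 higher in nsp2 at +P-N than at +P+N, with a median of -3.41, where 21.8% of all genes were lower. With phosphate left out 152 (49.0%) were lower and 49 higher, with a median of -1.27, beside 15.8% of all genes, and with both left out 63.2% were lower, with a median of -3.14, beside 19.0%. The 452 genes over 4-fold higher had 178 members (39.4%) higher and 35 lower at +P-N, where 19.7% of all genes were higher, and 26.8% and 37.6% higher in the other starved regimes, beside 17.6% and 18.8% of all genes.

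The contrast of nsp1 and GP was repeated in the starved regimes, whose libraries are separate. At +P-N 24.7% of all genes were called, 11.3% higher and 13.5% lower in nsp1. At -P+N 25.2% were called, 12.6% in each direction, and at -P-N 20.9%, with 9.43% higher and 11.5% lower. Of the 5689 genes higher at +P+N, 36.7% were also higher at +P-N, 41.4% under -P+N and 30.8% under -P-N, while 10.4, 4.92 and 9.95% were lower. Of the 5774 genes lower at +P+N, 37.4, 42.8 and 29.4% were also lower in these regimes, and 2.16, 2.70 and 3.20% were higher. In all 4 regimes 892 genes (1.92%) were higher and 948 (2.04%) lower, while 1532 of the higher and 2159 of the lower genes passed the threshold at +P+N alone, which does not show that they were alike elsewhere. The starved counts depended on single libraries. At +P-N 11512 genes were called, and 7081 when GP replicate 3 was dropped, while at -P+N 11736 were called, and 7102 when nsp1 replicate 3 was dropped. At -P-N 9732 genes were called, but dropping a library gave 5244 (GP replicate 1), 4951 (GP replicate 2) or 6276 (nsp1 replicate 3). In that regime nsp1 replicate 1 stood apart, since the genes that rise and fall together took 92.8% of its counts, and dropping it gave 12940. Of 720 genes over 1.5-fold higher in nsp1 in all 3 starved regimes, 567 (78.8%) were higher at +P+N, with a median of 1.35, and of 393 genes lower there, 215 (54.7%) were lower at +P+N, with a median of -0.57, beside 12.2% of all genes higher and 12.4% lower.

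Genes that separated the genotypes irrespective of nutrition were counted with a rule set after their values were seen: 3 counts or fewer in each of the 12 libraries of 1 genotype and 20 or more in each of the 12 of the other. There were 12 such genes with counts in nsp1 and 2 with counts in GP, chr7Hg0779571 and chrUng0829921. The 12 were not alike in the other lines. chr5Hg0556031 had 36 to 174 counts in each nsp1 library and no more than 1 in any GP or nsp2 library, and no count in MtNSP1ox or MtNSP2ox. chr4Hg0369051 and chr4Hg0369061, neighbours with equal counts in nsp1, averaged 0.71 CPM in nsp1 at +P+N and 1.12 and 1.13 CPM in MtNSP1ox, and had no count in GP, nsp2 or MtNSP2ox. chr1Hg0039511, chr4Hg0363241, chr6Hg0676641 and chr6Hg0676651 had counts in nsp1 and in both overexpression lines but at most 7 in any nsp2 library. chr1Hg0096071, chr6Hg0589301, chr6Hg0670571 and chr7Hg0698741 also had counts in every nsp2 library, from 19 upward.

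Among genes called in the same direction in all 4 regimes that met the limits set for the 10 largest changes, including at least 1 CPM in the higher group, those with the largest smallest change were chr6Hg0670571, chr3Hg0267291, chr6Hg0589301, chr7Hg0698751 and chr6Hg0608001 for increases. For decreases they were chr7Hg0779571, chrUng0836501, chr5Hg0480131, chr4Hg0452551 and chr4Hg0413491. chr4Hg0452551 had 0.897, 0.878 and 0.775 CPM in nsp1 libraries, against 3.53, 4 and 4.01 CPM in GP libraries at +P+N, and its log2 fold change was -2.15 there, -2.63 at +P-N, -1.57 under -P+N and -2.20 under -P-N. chr4Hg0413491 had 0.275, 0.235 and 0.239 CPM in nsp1 libraries, against 1.31, 0.915 and 1.23 CPM in GP libraries, with -2.18, -1.57, -2.34 and -1.45 in the same order. In nsp2 at +P+N these genes averaged 3.24 and 1.14 CPM, and nsp1 was lower than nsp2 by log2 fold changes of -1.92 ± 0.15 and -2.18 ± 0.19 (adjusted p = 4.1e-05 and 8.1e-05, edgeR). They averaged 0.408 and 0.272 CPM in MtNSP1ox and 0.506 and 0.554 CPM in MtNSP2ox.

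A test of the difference itself, the interaction of genotype and regime on 12 libraries, called 4971 genes (10.7%) for +P-N, 3630 (7.80%) for -P+N and 5661 (12.2%) for -P-N, each set against +P+N. The fold change of nsp1 over GP was higher than at +P+N for 3.50, 3.57 and 4.02% of all genes and lower for 7.19, 4.23 and 8.15%. For genes named for their size at +P+N the interaction leans the other way by that choice, so their values are descriptions. For chr3Hg0303761 the log2 fold change at +P-N minus that at +P+N was -5.64 ± 0.30 (adjusted p = 1.2e-07, edgeR), and for chr2Hg0174501 it was 4.17 ± 0.39 (adjusted p = 1.2e-05, edgeR). The values of these genes were close to that at -P+N (-5.79 and 3.83) and at -P-N (-5.84 and 4.09).

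The mutants were compared directly at +P+N, without the GP libraries that nsp1 and nsp2 would share as controls. nsp1 differed from nsp2 in 5542 genes (11.9%), 3309 (7.11%) higher and 2233 (4.80%) lower in nsp1. This count rested on single libraries, with 2959 to 3602 genes without any 1 nsp1 library, 9108 without nsp2 replicate 2 and 3512 without nsp2 replicate 3. In nsp2 replicate 2 the genes that rise and fall together took 72.9% of counts, against 87.0% and 87.1% in the others, and its part in the count was not tested. The nsp2, MtNSP1ox and MtNSP2ox levels given here stand beside the same 3 GP libraries as those of nsp1. Against those libraries 4.11% of all genes were called in nsp2 (1.70% higher, 2.41% lower), 30.0% in MtNSP1ox (15.6% higher, 14.4% lower) and 29.9% in MtNSP2ox (15.4% higher, 14.5% lower). The nsp2 share includes replicate 2, whose normalization factor was 1.21, against 0.577 and 0.568 in the others. These shares were not repeated with libraries left out. Spread within a group lowers the number of calls, so they do not rank the lines by their distance from GP.

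Of the 5 strigolactone and carotenoid genes, CCD7 alone passed the threshold at +P+N. D27 (chr7Hg0781091) had 0.359, 0.364 and 0.335 CPM in nsp1 libraries, against 0.382, 0.327 and 0.329 CPM in GP libraries. The values overlapped, with a log2 fold change of 0.06 ± 0.21 and an adjusted p of 0.87 in edgeR's test. CCD8 (chr3Hg0309501) had 0.12, 0.407 and 0.335 CPM in nsp1 libraries, against 0.216, 0.0735 and 0.128 CPM in GP libraries. These values overlapped too (1.12 ± 0.47, adjusted p = 0.11, edgeR), and the other CCD8 gene, chr3Hg0246861, had no count in nsp1 and 1 in GP. CCD7 (chr2Hg0201911) was higher in nsp1, with 1.03, 1.06 and 0.947 CPM, against 0.764, 0.67 and 0.695 CPM in GP. The log2 fold change was 0.54 ± 0.14 with an adjusted p of 0.017 in edgeR's test, and it missed the threshold without nsp1 replicate 1 (0.053), nsp1 replicate 2 (0.066) or GP replicate 3 (0.063), and the change was under 1.5-fold. CRTISO (chr1Hg0012421) had 2.48, 2.35 and 2.67 CPM in nsp1 libraries, against 3.06, 2.86 and 3.08 CPM in GP libraries. The groups did not overlap, but the difference of -0.23 ± 0.09 had an adjusted p of 0.078 in edgeR's test, and of 0.043 without GP replicate 2.

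Under starvation the same genes separated the genotypes. D27 averaged 0.466 CPM in nsp1 and 4.29 CPM in GP at +P-N, and 0.765 CPM in nsp1 and 3.85 CPM in GP at -P+N. CCD8 (chr3Hg0309501) averaged 1.13 CPM in nsp1 and 13.3 CPM in GP at +P-N, and 1.08 CPM in nsp1 and 7.74 CPM in GP at -P+N. D27 and this CCD8 gene were lower in nsp1 in each starved regime, with log2 fold changes between -3.20 and -2.29 for D27 and between -3.59 and -2.81 for CCD8. CCD7, higher in fed nsp1 roots, was lower in starved ones, by -0.72 ± 0.11 at +P-N, -1.12 ± 0.12 under -P+N and -1.11 ± 0.16 under -P-N on the log2 scale. The interaction passed the threshold for D27, CCD7, CCD8 (chr3Hg0309501) and CRTISO in each starved regime. For chr3Hg0246861, with 1 count in fed GP and 0 in fed nsp1 libraries, the interaction could not be determined.

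**Figure D5:**
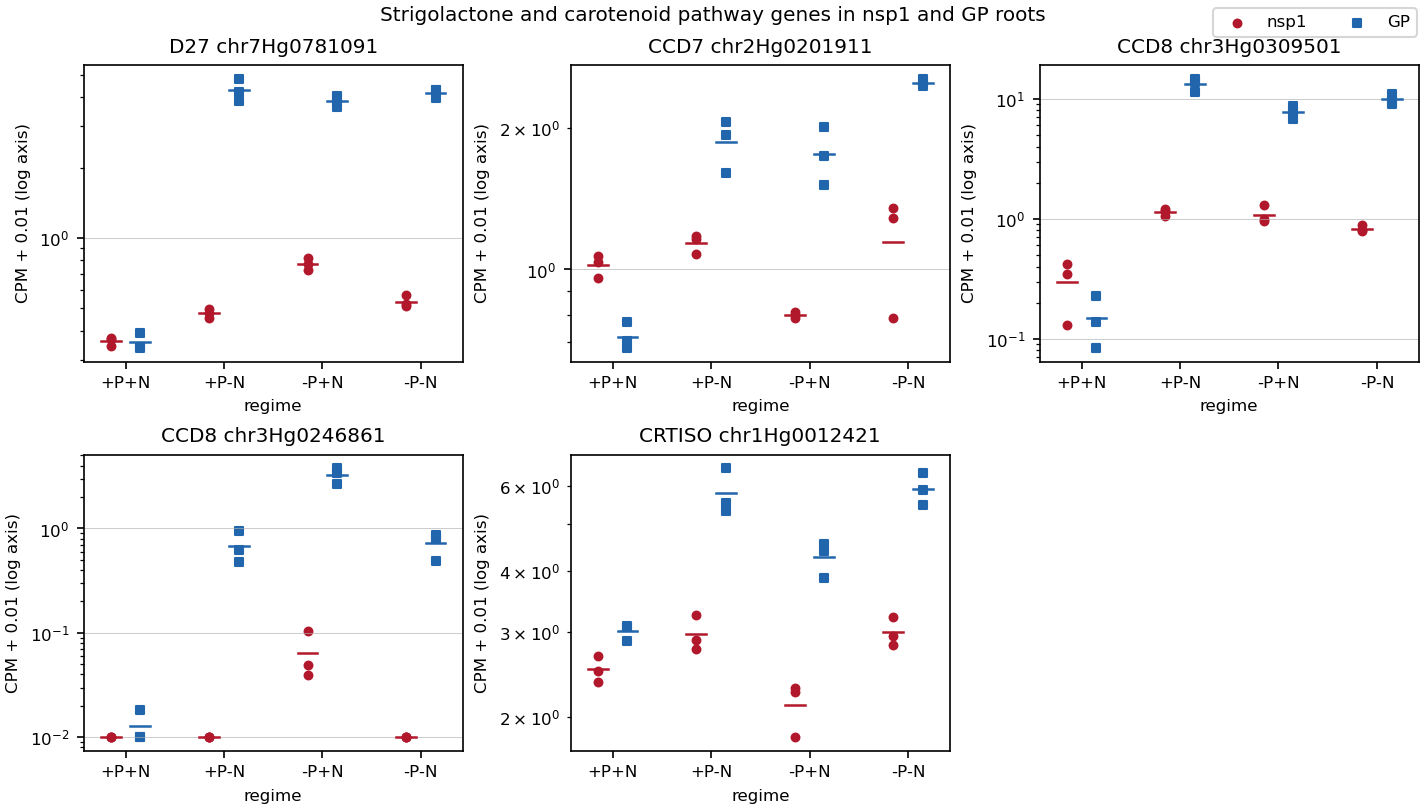
CPM plus 0.01 on a log axis for D27, CCD7, both CCD8 genes and CRTISO in 4 regimes, 1 point per library with a bar at the mean of 3, red for nsp1 and blue for GP. At +P+N the genotypes overlap for D27 and CCD8 (chr3Hg0309501), and in the starved regimes all nsp1 points lie below the GP points.

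Called genes were spread over the genome. The 7 chromosomes had 9.57 to 13.0% of their tested genes higher and 12.2 to 13.3% lower, and unplaced sequences had 21.1% higher, or 12.9% without the genes that rise and fall together. Some called genes were neighbours. Runs were counted along the tested genes, with correlated neighbours reduced to the first and genes that rise and fall together left out. There were 46 runs of at least 5 genes in a row called higher and 31 called lower, the longest of 11 and 7 genes. Genes left out of the count may lie within a run. The 8 genes from chr7Hg0712801 to chr7Hg0712981 had the largest median of the longest runs, 4.01 on the log2 scale, and 7 of them were over 4-fold higher. In that run chr7Hg0712911 had 3.15, 0.92 and 2.15 CPM in nsp1 libraries, against 0.137, 0.155 and 0.104 CPM in GP libraries, and chr7Hg0712941 had 3.37, 0.931 and 2.1 CPM, against 0.137, 0.147 and 0.122 CPM. Replicate 2 was the lowest of the nsp1 libraries in both and still above all GP libraries. In all, 7 of the 8 genes were called higher in each starved regime as well. Other runs did not hold in this way: of the 11 genes from chr2Hg0210341 to chr2Hg0210491, 0, 1 and 1 were called higher at +P-N, -P+N or -P-N, where the median log2 fold changes were -0.30, -0.19 and -0.44. The run from chr5Hg0529601 to chr5Hg0529761 had 7 genes with a median of 3.29, of which chr5Hg0529701 had 3.79, 2.81 and 3.2 CPM in nsp1 libraries, against 0.372, 0.172 and 0.244 CPM in GP libraries. Of this run 4, 3 and 4 genes were called higher in the starved regimes, in the same order. The runs were not all particular to nsp1. Against GP at +P+N, the median log2 fold changes in nsp2, MtNSP1ox and MtNSP2ox were 2.16, 2.36 and 1.14 for the run from chr7Hg0712801. They were -0.31, 0.97 and 0.73 for the run from chr2Hg0210341, and 0.63, 2.66 and 1.74 for the run from chr5Hg0529601.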

How the data were processed

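Whole barley roots were profiled by poly A RNA sequencing. The authors checked reads with FastQC, aligned them with STAR to a Golden Promise genome and used featureCounts for counting; the raw counts they deposited cover 87541 genes in 42 barley libraries. Versions and the sequencing provider of each library are not given in the sources used here. The 46523 genes tested had, in at least 3 of the 42 libraries, the CPM that 10 counts make in the median library (0.0833). Genotypes were compared on the deposited counts with edgeR 4.0.16 (R 4.3.3) by the quasi-likelihood test with TMM factors and Benjamini-Hochberg adjustment over all genes tested, called at 0.05. SEs are the log2 fold change over the root of F. An exact permutation test of 3 against 3 cannot go below 0.1.

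Genes were named by rule: the 5 with names in the study, the 10 largest changes in each direction under the conditions given with them, and the 5 in each direction with the largest smallest change over 4 regimes under those same conditions, a mean of at least 1 CPM in the higher group included. Genes of the on and off count and of runs were chosen after their values were seen. Members and lists were chosen with earlier results of these data known. Alternatives were DESeq2 1.42.0, RLE size factors, other filters, a fold over 1.5, all 14 groups in 1 fit, a replicate block, gene sets left out and each library left out. Figures were drawn with matplotlib 3.10.9. Tables of other species in the series were not used here. Intervals and floors cover counting error only. Neighbouring genes may share reads.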

Additional observations from a re-analysis of the deposited data

Results flagged for a closer look

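The difference between nsp1 and GP itself differed between a starved regime and +P+N, by edgeR's interaction test on 12 libraries, for the genes given here, each with the largest difference among the regimes where the test passed the threshold. Values are the log2 fold change of nsp1 over GP in the starved regime minus that at +P+N. Genes named for their size at +P+N lean toward an opposite sign by that choice.

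Among the strigolactone and carotenoid genes the value was -3.29 for D27 at +P-N, -4.78 for CCD8 (chr3Hg0309501), -1.69 for CCD7 and -0.79 for CRTISO at -P-N. Each of the 4 remained past the threshold under all 15 alternatives run for it.

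Among genes higher in nsp1 at +P+N it was -5.84 for chr3Hg0303761 at -P-N, -1.45 for chr6Hg0675041 at -P+N and -2.79 for chr7Hg0678911 at +P-N, where the last was kept in 5 of 15 alternatives. For chrUng0841581 it was 2.62 at -P-N, where the fitted difference was larger than at +P+N. GP libraries had 0, 1 and 1 counts of this gene there, so its size is poorly determined.

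Among genes lower in nsp1 at +P+N it was 3.63 for chr1Hg0055101, 3.58 for chr1Hg0055121, 2.78 for chr6Hg0595521 and 0.58 for chr4Hg0452551 at -P+N. At +P-N it was 4.17 for chr2Hg0174501, 2.05 for chr5Hg0480131 and 3.13 for chr6Hg0645481. At -P-N it was 4.52 for chr1Hg0055111, which had 0 to 6 counts per library there and lost the call without nsp1 replicate 2, and 3.50 for chr4Hg0444981, kept in 9 of 15 alternatives.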

How the results depend on the processing

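Over the named genes, 547 of 554 alternatives kept direction and side of the threshold, 4 lost the call (CCD7, with 3 libraries left out in turn and with a fold over 1.5 required), 3 gained it and 0 reversed. Much of this was set by selection. The largest changes were picked for calls that held with each of the 6 libraries left out, so those alternatives could not differ. Genes of the on and off count were picked for their separation. With a fold over 1.5 also required, 6532 genes were called at +P+N (3671 higher, 2861 lower), 3912 at +P-N, 4739 at -P+N, 5893 at -P-N, 3274 for the interaction at +P-N, and 711 with 1 sign in all 4 regimes, where 1840 had been. With all 14 groups in 1 fit, 15115 were called at -P-N and 9910 for nsp1 against nsp2, and at +P+N 5373 were higher and 7628 lower (41.3% higher, beside 49.6%); DESeq2 gave 5399 and 4418 (55.0% higher). Alternatives for the starved regimes and the lists were chosen after seeing the data.

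Leaving out 1 library gave 7735 to 12131 genes at +P+N (3828 to 6294 higher, 3907 to 5837 lower), 7081 to 12279 at +P-N, 7102 to 10389 at -P+N, 4951 to 12940 at -P-N, and 2959 to 9108 for nsp1 against nsp2. The interactions ranged over 3661 to 5628 (+P-N), 2471 to 4329 (-P+N) and 4188 to 7300 (-P-N), and the genes of 1 sign in all regimes over 1276 to 1961. Replicate numbers did not pair the samples: deviations of same-numbered nsp1 and GP libraries correlated with r of -0.0096, -0.132 and -0.0998. With the replicate block 9226 genes were called at +P+N (4520 higher, 4706 lower), 9046 of them shared with the same sign, and 3632 for nsp1 against nsp2. Among genes under 0.1 CPM 4.21% were called higher and 2.08% lower, with a median size of 2.59 on the log2 scale, so smaller differences were mostly not detectable at such levels.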
